A study of Rattus norvegicus with 12 samples.

Results

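The effect of arginine withdrawal that is common to both liver cell lines was measured on all 12 arrays of the series, 6 from arginine-deficient and 6 from arginine-sufficient cultures. The normal cells are WB-F344, a diploid epithelial line from rat liver, and the tumor cells are GP7TB, a chemically transformed clonal derivative of that line, made by repeated brief exposure to N-methyl-N-nitro-N-nitrosoguanidine, which forms tumors in syngeneic rats. Both lines were kept for 18 h in Chee's Essential Medium with 5% fetal bovine serum, either with L-arginine at 0.168 g/l or without it, and the serum was present in both media. Each line gave 3 independent experiments, and each experiment gave 1 deficient and 1 sufficient culture with 1 RAE230A array each, so that the effect was read as the mean of 6 paired differences. Each line is a model of 1 kind of cell, and the tumor line derives from 1 clone. All 12 of 12 arrays entered the fit.

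Mammalian cells sense a missing amino acid through uncharged transfer RNA, which activates the kinase GCN2. Phosphorylation of the initiation factor eIF2 then lowers general translation and favors translation of ATF4, a transcription factor that binds C/EBP-ATF response elements in the promoters of genes for amino acid synthesis, uptake and transfer RNA charging. Arginine is also the substrate of arginase, which makes ornithine, the precursor of the polyamines. Cholesterol synthesis is controlled separately, by SREBP transcription factors that bind sterol response elements. These paths, together with the cell cycle, are the groups into which the genes below are ordered.

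The promoters of the genes that rose are shown first, since the core of the C/EBP-ATF response element was found in more of them than in promoters at large. The core was searched as TGATGNAA on both strands of the RefSeq promoter windows of the rat build GRCr8, from 250 bases before to 50 bases after the annotated start, and matches that overlap were all counted. It was present in 24 of the 288 windows matched to genes that rose (8.33%), 6 of the 341 of genes that fell (1.76%), 115 of the 6078 of all genes tested (1.89%) and 1048 of 27457 windows in all (3.82%). Among the 48 matched genes that rose at least 2-fold, 10 had the core (20.8%), namely Trib3, Nupr1, Herpud1, Chac1, Slc7a1, Yars1, Avil, Tubb3, Cox6a2 and Pck2. Of the cytosolic aminoacyl-tRNA synthetases, 7 of 19 matched windows had it (36.8%), as had 4 of 20 of the ATF4 pathway regulators (20%), 2 of 11 of the amino acid transporters (18.2%) and 1 of 15 of the enzymes of amino acid synthesis (6.67%). A match is a description of letters in a window and was not tested. Tubb3 (67 to 111.4 with arginine, 165.8 to 249.1 without) and Cox6a2 (65.4 to 112.4 and 94.5 to 355.8) had low signals. On every array with arginine both were under the cutoff of the filter on low signals (156 to 191). They passed it only through arrays without arginine. The 28 bases around the match, or 22 for Yars1 whose match lies near the end of its window, are printed from 5′ to 3′ in the direction of the motif, with the core in capitals, for 5 genes of the amino acid response that rose at least 2-fold and for 6 of the 7 synthetases.
Trib3 (plus strand of chr3:161275537-161275564): cccgcccggcTGATGTAAacctgagcta
Nupr1 (plus strand of chr1:190645939-190645966): aagccctgtcTGATGCAAtctggccttt
Herpud1 (plus strand of chr19:10614874-10614901): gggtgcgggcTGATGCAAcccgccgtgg
Chac1 (minus strand of chr3:126795954-126795981): ctagcaggagTGATGCAAcggcggagaa
Slc7a1 (plus strand of chr12:11664448-11664475): ggcgcgcggcTGATGAAAccggctcgga
Yars1 (plus strand of chr5:146820191-146820212): cgagctcagcTGATGCAAcctg
Cars1 (plus strand of chr1:208225335-208225362): ttccagaatcTGATGCAAccgcggcgcc
Iars1 (plus strand of chr17:15193659-15193686): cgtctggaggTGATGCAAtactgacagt
Nars1 (minus strand of chr18:60275779-60275806): ctaggtgatcTGATGCAAcgcttcagtc
Mars1 (plus strand of chr7:65023753-65023780): gagcccacgcTGATGCAAccggaacggg
Tars1 (plus strand of chr2:62114812-62114839): gctaaccagcTGATGCAAcgggacgcca
In the windows printed the free base of the core was C in most genes, T in Trib3 and A in Slc7a1. The core TCACNCCAC of the sterol response element was in 0 of the 14 matched windows of cholesterol synthesis enzymes, in 2 of the 341 of genes that fell (0.587%) and in 73 of the 6078 of all genes tested (1.2%).

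Signals had a median of 173 to 226 on an array, and 9745 probe sets for 7192 named genes passed the filter on low signals. The labelled cell type was checked against its markers, and Krt8, Krt7 and Vim were expressed on 12 arrays and Met on 11, whereas Krt18, Krt19, Epcam and Cdh1 were on 0. Of the hepatocyte markers Apob was expressed on 7 arrays, Cyp2e1 on 3, Alb on 2 and Apoa1 and Afp on 0, of the macrophage markers Aif1 on 8, and the lists of endothelial and lymphocyte markers held no expressed gene. Among these markers Krt8 fell by 0.43 on the log2 scale (adjusted p = 0.0302, lower in 6 of 6 pairs). Of the 3 stellate or fibroblast markers tested Acta2 (−0.48, adjusted p = 0.0397) and Col1a1 (−0.54, adjusted p = 0.0325) fell and Des was at −0.46 (adjusted p = 0.149). This probe set of Col1a1 was at −0.17 in normal and −0.91 in tumor cells. Its other probe set was at −0.40 (adjusted p = 0.0586), with −0.57 in normal and −0.23 in tumor cells. The call of Krt8 was lost without experiment 1 or 3 of normal or experiment 2 or 3 of tumor cells, and those of Acta2 and Col1a1 without experiment 1 of normal or any 1 experiment of tumor cells, that of Acta2 also without experiment 2 of normal cells. Their estimates without any 1 pair were −0.34 to −0.49, −0.39 to −0.58 and −0.43 to −0.66. The summed signal of the epithelial list overlapped between the conditions in both lines, at 28746 to 32068 with arginine and 21026 to 31476 without in normal cells and at 17260 to 23999 and 17638 to 25881 in tumor cells, as did that of the macrophage list. That of the stellate list was lower without arginine and did not overlap in tumor cells (1354 to 1489 against 957 to 1184), that of the hepatocyte list in normal cells (842 to 969 against 595 to 809), and that of the lymphocyte list was higher in tumor cells (180.3 to 219 against 225 to 288). The part of these in the results was not tested. RNA integrity was read from control probe sets at both ends of a transcript. For Gapdh the signal at the 3′ end relative to that at the 5′ end was higher without arginine in 6 of 6 pairs (mean log2 difference 0.062 ± 0.053, SD, n = 6, exact two-sided sign-flip permutation test, p = 0.0312, the smallest that 6 pairs allow), and that of Actb in 2 of 6 (p = 0.5). The arrays with and without arginine came from different chip lots in experiment 2 of normal cells, which also spans different scan days, and in experiments 1 and 2 of tumor cells. The run notes of tumor experiment 2 say no trypsin on both arrays, and those of experiments 1 and 3 trypsin. Experiment 2 of normal cells stood apart by its small differences: the median log2 change of the rises described below was 0.31 in it and 0.56 to 0.84 in the other 5 pairs, and that of the falls −0.29 against −0.51 to −0.70.

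Without arginine, 424 probe sets rose (4.35%) and 550 fell (5.64%) over both lines, at an adjusted p under 0.05 in limma with the 6 pairs as a block. With 1 probe set for each gene, 327 of 7192 genes rose (4.55%) and 409 fell (5.69%). The counts of list members below stand against these shares. The effects were moderate: 76 rises and 43 falls reached 2-fold, 9 rises and 1 fall reached 4-fold, and the median log2 change was 0.60 for the rises and −0.58 for the falls, against −0.05 over all probe sets tested. The direction was the same in all 6 pairs for 360 of the rises and 454 of the falls, which choosing calls over these pairs favors. Among all 9745 probe sets tested, 678 were higher and 986 lower in all 6 pairs. With the median of each array set equal, 550 rose and 360 fell, so that rises were 60.4% of the calls against 43.5%, and the balance between rises and falls depends on the scaling. With any 1 pair left out, 175 of the 424 rises and 128 of the 550 falls were kept throughout, and the numbers of calls were lowest without experiment 1 of tumor cells for rises (198) and without experiment 2 of tumor cells for falls (185). With the Gapdh ratio as a covariate, 7 probe sets rose and 3 fell, of which the named ones are Mthfd2, Trib3, Atf5, Nupr1, Gadd45a, Hrct1, Uqcc3 and Gask1b. All 974 calls then had the same sign, with a median change 0.900 times that without the covariate and a median standard error 1.66 times as large, and the part of RNA quality in the other calls was not tested further. In cultures of 1 cell type, a lower level of a transcript in each cell and fewer cells that carry it cannot be told apart.

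**Figure D1:**
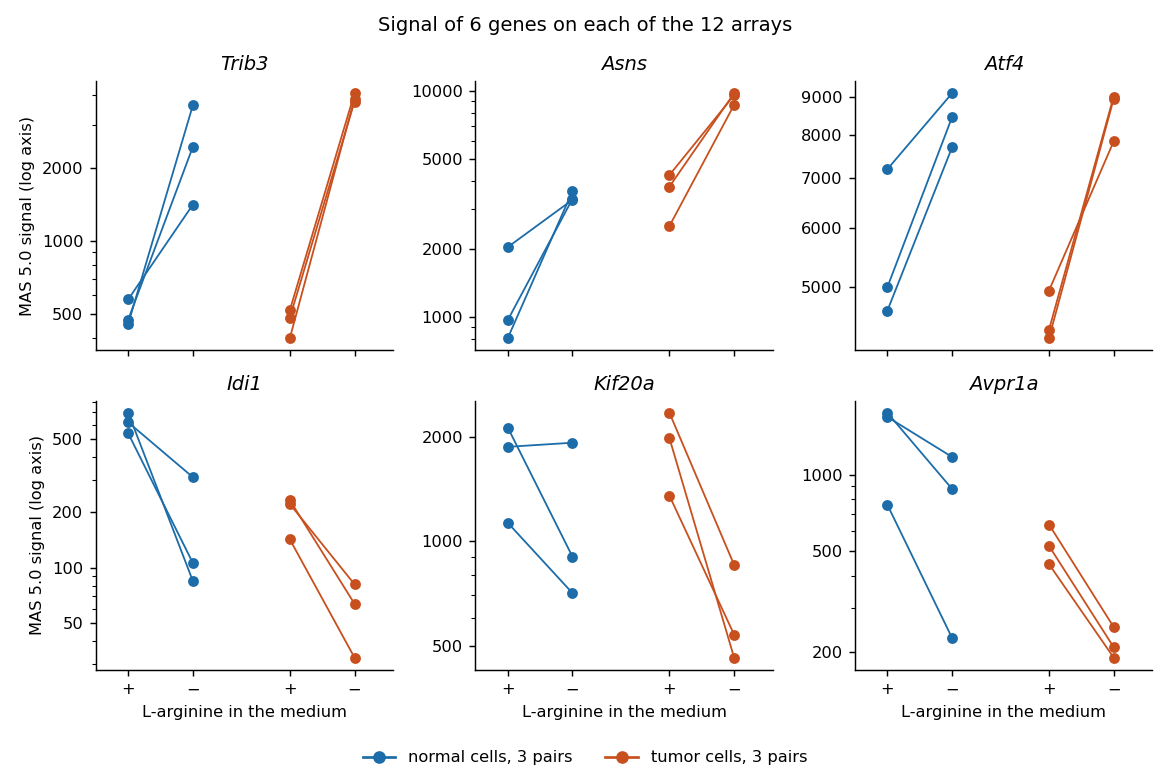
Signal (linear Microarray Suite 5.0 units, log axis) of 6 genes on all 12 arrays, with a line joining the arginine-sufficient and arginine-deficient array of each experiment, blue for normal and orange for tumor cells. Trib3, Asns and Atf4 are higher without arginine in 6 of 6 pairs, Idi1 and Avpr1a are lower in 6 of 6, and Kif20a is lower in 5 of 6, the exception being experiment 2 of normal cells (1874 with and 1926 without arginine).

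Of 21 regulators of the ATF4 pathway tested, 12 rose (57.1%) and 0 fell, with a median log2 change of 0.76 against −0.05 over all genes, and the median was 0.34 to 1.14 in the 6 pairs. Trib3, a pseudokinase that is a target and a feedback inhibitor of ATF4, had signals of 398.6, 479 and 575 (lowest, median, highest) with arginine and 1413, 3689 and 4063 without. The conditions did not overlap, and the fold was 6.24 (log2 2.64 ± 0.21, SE, n = 6 pairs, adjusted p = 6.67e-05). Its other probe sets changed by 2.51 and 2.16. Atf4 itself was at 4275, 4801 and 7198.5 with arginine and 7698, 8697 and 9098 without, again with no overlap, which is a 1.70-fold rise (0.76 ± 0.10, adjusted p = 0.00101).

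Other factors and targets of the pathway rose too. Nupr1, a small stress-induced chromatin protein, went from a median of 434 to 1452 (1.91 ± 0.17, adjusted p = 9.34e-05), and Atf5, a factor whose translation is controlled like that of ATF4, from 1371 to 3318 (1.21 ± 0.10, adjusted p = 8.50e-05). Chac1, which degrades glutathione, rose by 1.47 ± 0.15, Ddit3, which encodes CHOP, by 1.36 ± 0.20, Cebpg, a dimer partner of ATF4, by 0.98 ± 0.13, and Vegfa, an angiogenic growth factor, by 1.35 ± 0.13. Ppp1r15a, the phosphatase subunit GADD34 that reverses eIF2 phosphorylation, rose by 1.58 ± 0.22. Signals of Atf5, Chac1, Cebpg and Vegfa did not overlap between the conditions, and those of Nupr1, Ddit3 and Ppp1r15a did. Atf3 had the largest estimate of the list, 2.86 ± 0.57 (adjusted p = 0.0106), from low signals of 9.9 to 113.8 with arginine and 60.2 to 422 without. With low signals raised to a floor it was 0.52 (adjusted p = 0.0402). Cebpb (0.34, adjusted p = 0.0434) and Stc2 (1.03, adjusted p = 0.0256) rose less firmly: each lost its call without experiment 1 of normal cells or any 1 experiment of tumor cells (adjusted p up to 0.137 and 0.0760). Stc2 also lost its call with low signals raised to the floor (0.59, adjusted p = 0.0682) and without the filter on low signals. The kinases upstream were at 0.04 for Eif2ak1, 0.02 for Eif2ak3, −0.04 for Eif2ak4, which encodes GCN2, and −0.17 for its activator Gcn1, none past the threshold.

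Of 17 enzymes that make amino acids and one-carbon units, 10 rose (58.8%) and 0 fell, with a median of 0.58. Mthfd2, the mitochondrial methylenetetrahydrofolate dehydrogenase, had the smallest p of all probe sets with a gene name. Its signals were 517, 806 and 523 with arginine and 1371, 1594 and 1633 without in the 3 experiments of normal cells, and 1186, 1349 and 1378.5 against 3459, 3733 and 3863 in tumor cells. Every culture without arginine was above its partner, with overlap only across the lines, and the change was 1.42 ± 0.10 (adjusted p = 5.23e-05).

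Asns, which makes asparagine, was at 807, 2037 and 970 with arginine and 3599, 3296 and 3326 without in normal cells, and at 2522, 3768 and 4240 against 8656, 9743 and 9551 in tumor cells. Within each line the conditions did not overlap, and the rise was 2.81-fold (1.49 ± 0.16, adjusted p = 0.000292). The enzymes of serine synthesis rose in order of the pathway by 1.36 ± 0.14 for Phgdh, 0.69 ± 0.11 for Psat1 and 1.37 ± 0.15 for Psph. Shmt2, which passes the carbon of serine to folate in mitochondria, rose by 0.86 ± 0.11, and Cth, which makes cysteine from cystathionine, by 1.67 ± 0.17. Got1 and Bcat1, both transaminases, rose by 0.54 and 0.58. Aldh18a1, which starts proline synthesis from glutamate, rose by 0.58 (adjusted p = 0.0195), a call lost without any 1 experiment of tumor cells (adjusted p up to 0.0662). Glul, glutamine synthetase, was at −0.26 (adjusted p = 0.16) in the probe set that stands for it, and fell in its other 2 probe sets (−0.50, adjusted p = 0.0306, and −0.38, adjusted p = 0.0467), calls lost without experiment 1 of normal or any 1 experiment of tumor cells, the smaller also without experiment 3 of normal cells. Without any 1 pair these estimates were −0.42 to −0.63 and −0.29 to −0.45.

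Transporters of amino acids rose in 6 of 12 tested (50%), with a median of 0.38. Slc7a1, the carrier CAT1 for arginine, lysine and ornithine, was at 610, 1275 and 758 with arginine and 2015, 1931 and 2435 without in normal cells, and at 1733, 2038 and 1772 against 4586, 4544 and 3795 in tumor cells. The conditions did not overlap within either line, and the rise was 2.43-fold (1.28 ± 0.14, adjusted p = 0.000342). Another probe set rose by 1.05, and the remaining one, at lower signals, was at 0.37 (adjusted p = 0.206). The subunits of the exchanger for large neutral amino acids rose together, Slc7a5 by 1.57 ± 0.21 and Slc3a2 by 0.95 ± 0.13, and neither overlapped between conditions. Slc6a9, a glycine carrier, rose by 1.11 ± 0.14, Slc38a2, the system A carrier SNAT2, by 0.77 ± 0.10, and Slc1a5, a glutamine exchanger, by 0.54 ± 0.10. All 6 rises were kept with any 1 pair left out. The taurine carrier Slc6a6 fell by 0.79 on the log2 scale (adjusted p = 0.0242), a call lost without experiment 1 of normal cells or any 1 experiment of tumor cells (adjusted p up to 0.0796).

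**Figure D2:**
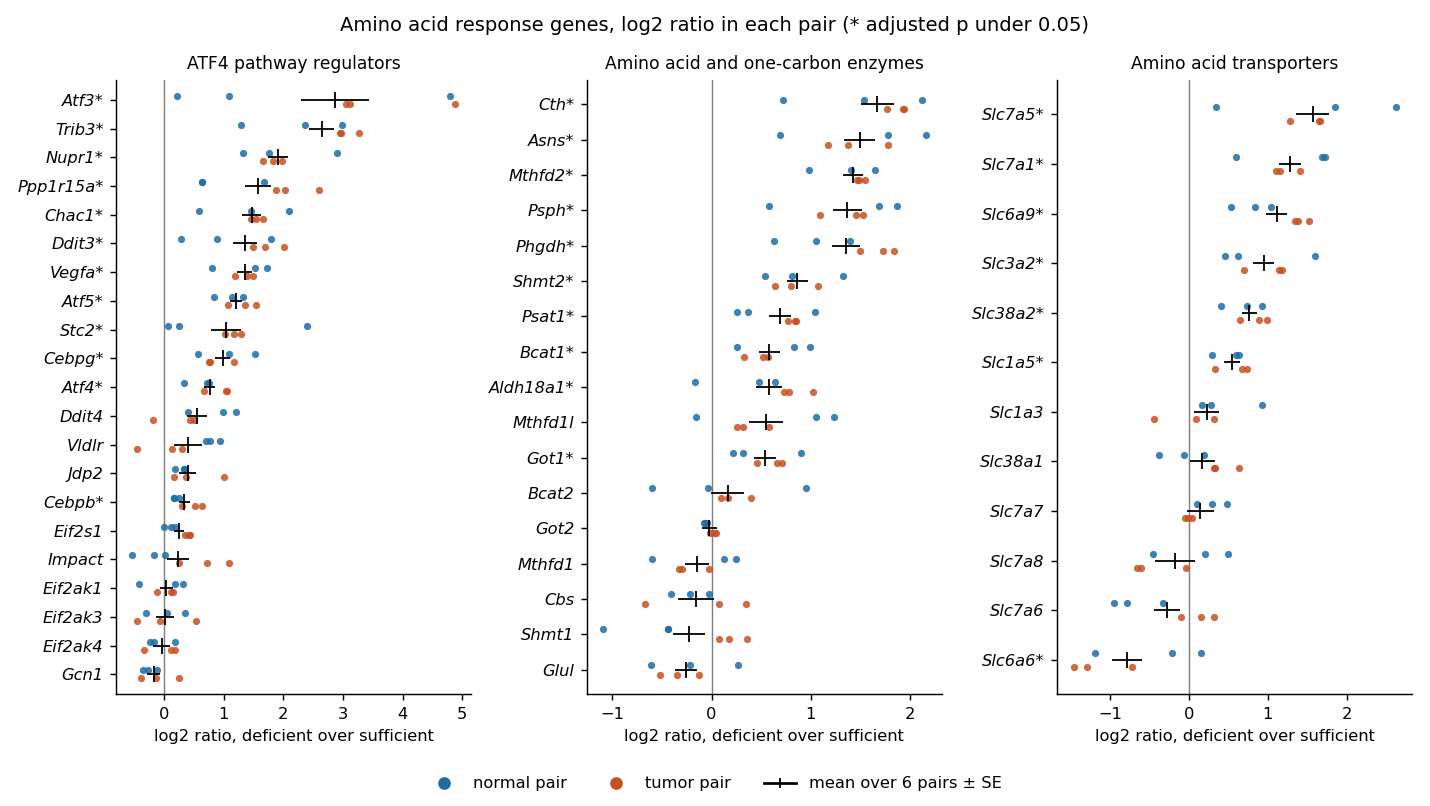
Log2 change without arginine (x axis) for the tested ATF4 pathway regulators, enzymes of amino acid and one-carbon synthesis and amino acid transporters (rows). Points are the 6 pairs, blue for normal and orange for tumor cells, the black mark and bar are the mean and its standard error, and stars mark an adjusted p under 0.05, on 12, 10 and 7 genes, of which 1 (Slc6a6) lies below 0.

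The cytosolic aminoacyl-tRNA synthetases, which load amino acids onto transfer RNA, rose in 14 of 21 tested (66.7%) and fell in 0, with a median of 0.64. Sars1, for serine, was at 1508, 2164 and 2476 (lowest, median, highest of 6 arrays) with arginine and at 3414, 4033 and 5414 without. The conditions did not overlap, and it rose by 1.06 ± 0.13 (adjusted p = 0.000754). Yars1 rose by 1.01, Eprs1 by 0.88, Wars1 by 0.87, Aars1 by 0.85, Cars1 by 0.82, Gars1 by 0.68, Lars1 by 0.67, Nars1 by 0.64, Mars1 by 0.58 and Aimp2, a scaffold of the synthetase complex, by 0.49, and these calls held with any 1 pair left out. Iars1 (0.67), Tars1 (0.52) and Rars1 (0.42), the last the enzyme that uses arginine, each lost the call without some 1 experiment of tumor cells, with adjusted p up to 0.0559, 0.0570 and 0.0593. Of those not past the threshold, Vars1 was at 0.66 (adjusted p = 0.062), Aimp1 at 0.50 (0.054), Kars1 at 0.19, Farsb at 0.18, Farsa at 0.08, Qars1 at −0.06 and Hars1 at −0.47 (0.058). The median of the list was 0.24 to 0.51 in the pairs of normal cells and 0.70 to 0.86 in those of tumor cells. The difference between the lines passed the threshold for 0 of these genes. Of 4 mitochondrial synthetases tested, 0 were past the threshold, with a median of 0.22.

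Of 25 genes of translation initiation and its control, 4 rose (16%) and 2 fell (8%), with a median of 0.05. Eif4ebp1, which holds back the cap-binding factor eIF4E, rose by 1.04 ± 0.11 with no overlap between conditions (2065 to 3027 with arginine, 3447 to 5573.5 without), and Eif2b3, a subunit of the exchange factor for eIF2, rose by 0.82. The other 4, Btg1, Eif2s2, Eif4g1 and Eif4ebp2, lost their calls without some 1 pair, and 2 rose without any 1 experiment of tumor cells. Of 26 genes for chaperones and degradation in the endoplasmic reticulum, 5 rose (19.2%) and 1 fell (3.85%), and the median was 0.09. Herpud1, a part of the degradation machinery, rose by 1.60 ± 0.15 (408 to 763 with arginine, 1193 to 2296.5 without) and Casp12, a caspase of that compartment, by 1.14 ± 0.13. Hspa5, the chaperone BiP, rose by 0.53 and Xbp1 by 0.55, both calls lost without experiment 1 of normal cells or experiments 1 or 2 of tumor cells, and that of Hspa5 also without experiment 3 of tumor cells (adjusted p up to 0.0680 and 0.0573). Without experiment 1 of normal cells 2 of the 5 rises passed. Of 12 mitochondrial chaperones and proteases 2 rose (16.7%), Hspa9 (0.97 ± 0.12) and Lonp1 (1.15 ± 0.15). Casp4, an inflammatory caspase, rose by 1.63 ± 0.16. It was the 1 call among 13 caspases and BCL2 family members (7.69%, against 4.55% of all genes that rose). Sqstm1, the autophagy receptor p62, rose by 1.05 ± 0.11. Its list had 2 calls of 19 (10.5%), the other being Atg12 (0.64), a call lost without any 1 experiment of tumor cells (adjusted p up to 0.0545).

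Of 12 enzymes of the urea cycle and of arginine use, 1 rose (8.33%) and 3 fell (25%), with a median of 0.07. Arg1, the arginase of the urea cycle, was at 496, 923 and 487 with arginine and 350, 603 and 283 without in normal cells, and at 302, 478 and 338 against 108, 104 and 166 in tumor cells. It was lower in 6 of 6 pairs and the conditions overlapped in normal cells, with a fall of 2.14-fold (−1.10 ± 0.20, adjusted p = 0.00676). The estimate was −0.63 in normal and −1.57 in tumor cells. Oat, ornithine aminotransferase (−0.52, adjusted p = 0.0292), and Gamt, of creatine synthesis (−0.54, adjusted p = 0.047), fell and Prmt3, which methylates arginine in proteins, rose (0.94, adjusted p = 0.0192), all 3 calls being lost without experiment 1 of normal cells or any 1 experiment of tumor cells (adjusted p up to 0.0937, 0.14 and 0.06). Arg2 was at 0.66 (adjusted p = 0.096) and Asl at 0.50 (0.08).

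In the polyamine list 2 of 12 rose (16.7%) and 0 fell. Odc1, ornithine decarboxylase, starts polyamine synthesis. Its signals were 2972, 4004 and 4945 (lowest, median, highest of 6 arrays) with arginine and 3680, 7484 and 9470 without (0.78 ± 0.13, adjusted p = 0.00475), with overlap between the conditions. Sat1, which acetylates spermidine and spermine for their removal, was in the same order at 2034, 2427 and 2965 with arginine and 3077, 3649 and 7525 without (0.73 ± 0.12, adjusted p = 0.00470), with no overlap.

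Of 17 enzymes of cholesterol synthesis tested, 8 fell (47.1%) and 0 rose, with estimates over both lines from −0.30 to −1.52 and a median of −0.75. Within the lines the median was −0.98 in normal and −0.35 in tumor cells. Idi1, which isomerizes isopentenyl diphosphate, was at 695, 616 and 537 with arginine and 84.6, 310 and 106 without in normal cells, and at 232, 222 and 143 against 63.7, 81.3 and 32.5 in tumor cells. The conditions did not overlap within either line, and the fall was 3.92-fold (−1.97 ± 0.24, adjusted p = 0.000684). With low signals raised to a floor it was −0.96 (adjusted p = 0.0160), and the probe set that stands for the gene in the list was at −1.20. Dhcr7, the last enzyme of the path, was at 512, 188 and 294 with arginine and 144, 95.6 and 105 without in normal cells and at 547, 445 and 439 against 222, 247 and 326 in tumor cells (−1.14 ± 0.18, adjusted p = 0.00294).

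Fdft1, squalene synthase (−0.75 ± 0.16), and Ebp, a sterol isomerase (−0.79 ± 0.15), also kept their calls with any 1 pair left out. Sqle (−0.91), Cyp51 (−0.80), Lbr (−0.53) and Sc5d (−0.54) did not (adjusted p up to 0.121, 0.0545, 0.0767 and 0.116). The number of falls was 4 without experiment 1 of normal cells, and 5 without its experiment 3 or without experiment 2 or 3 of tumor cells. The median of the list was −1.71, −0.27 and −1.48 in the 3 pairs of normal cells and −0.36, −0.43 and −0.37 in those of tumor cells. For 0 of these enzymes did the difference between the lines pass the threshold. Mvd, which makes isopentenyl diphosphate, came nearest, at −3.58 in normal and 0.54 in tumor cells (SE 0.54 in each, adjusted p of the difference 0.07). Its signals were low, at 54.8 to 496 with arginine and 15.9 to 252 without, and its pair ratios ran from −4.96 to 1.69. Also above 0 in tumor cells were Fdps (−1.38 in normal and 0.01 in tumor cells), Msmo1 (−1.26 and 0.37) and Tm7sf2 (−0.75 and 0.15). Acat2 (−1.62 and −0.23), Hsd17b7 (−1.91 and −0.32) and Mvk (−0.60 and −0.07) were nearer 0 in tumor cells. Sqle (−0.85 and −0.96) and Lbr (−0.44 and −0.62) went the other way.

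Insig1, an SREBP target that restrains SREBP processing, fell by 1.25 on the log2 scale (SE 0.22, adjusted p = 0.00550). By the probe set with the highest signal it was the 1 call of 9 (11.1%) in the list of SREBP control and cholesterol transport. Srebf1, which encodes SREBP-1, was lower in 6 of 6 pairs in both of its probe sets, at −0.37 (adjusted p = 0.0928) in the one with the higher signal and −0.61 (adjusted p = 0.0205) in the other, a call lost without experiment 3 of normal or any 1 experiment of tumor cells (−0.53 to −0.74 without any 1 pair). Among 17 genes of fatty acid synthesis 4 fell (23.5%) and 0 rose. Acsl3, an acyl-CoA synthetase, went from a median of 393 to 174 (−1.15 ± 0.20, adjusted p = 0.00532). Scd2 (−1.04), Elovl6 (−0.90) and Fasn (−0.63) fell with calls that were lost without some 1 pair, Fasn for example without experiment 1 of normal or experiment 3 of tumor cells (adjusted p up to 0.0524), Scd2 without experiment 1 or 2 of tumor cells (0.0769), and Elovl6 without any 1 pair but experiment 2 of normal cells (0.139).

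Of 22 genes of mitosis tested, 15 fell (68.2%) and 0 rose, with a median of −0.70, and the other 7 lay between −0.13 and −0.53. Kif20a, a kinesin of the central spindle, was at 2130, 1874 and 1131 with arginine and 903, 1926 and 709 without in normal cells, and at 1355, 1986 and 2350 against 538, 462 and 856 in tumor cells. It was lower in 5 of 6 pairs and the conditions did not overlap in tumor cells (−1.13 ± 0.21, adjusted p = 0.00737). Spag5, a spindle protein, fell from a median of 724 to 254 (−1.18 ± 0.23, adjusted p = 0.00894) and Ncapd2, a condensin subunit, from 602 to 294 (−0.97 ± 0.16, adjusted p = 0.00421).

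These 3 were the falls kept with any 1 pair left out. The other 12 were Espl1, Plk4, Ccnb2, Pttg1, Cdc20, Aurkb, Kif2c, Hmmr, Plk1, Aurka, Birc5 and Kif22, between −0.56 and −0.96. Cdc20 was at −0.13 in normal and −1.35 in tumor cells (adjusted p of the difference 0.083). The number of falls was 6 without experiment 1 of normal cells, 5 without experiment 1 or 2 and 6 without experiment 3 of tumor cells, and 17 without experiment 2 of normal cells. In the 3 pairs of normal cells the median of the list was −0.80, 0.06 and −0.29, and in those of tumor cells −1.13, −1.03 and −0.78. Cdk1 (−0.14), Ccnb1 (−0.20), Ube2c (−0.27) and Top2a (−0.53) were not past the threshold.

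Genes of DNA replication had 5 falls (18.5%) and 0 rises of 27 and a median of −0.21. Tk1, thymidine kinase, fell from a median of 2386 to 1185 (−1.03 ± 0.17, adjusted p = 0.00428), Tyms, thymidylate synthase, from 372 to 205 (−0.77 ± 0.12, adjusted p = 0.00352), Rpa3, a subunit of the single-strand binding complex, from 734 to 437, and Pole, a polymerase subunit, from 623 to 336. The fifth, Pola2 (−0.84), lost its call without experiment 1 or 2 of tumor cells (adjusted p up to 0.0872). Of 17 genes for CDK inhibitors, GADD45 proteins and growth arrest, 2 rose (11.8%) and 5 fell (29.4%), and neither of the rises was of a CDK inhibitor. Gadd45a, a DNA damage and stress protein, rose in 6 of 6 pairs from 355, 177 and 256 to 2381, 360 and 1218 in normal cells and from 1178, 927 and 557 to 4631, 3992 and 2553 in tumor cells (2.05 ± 0.17, adjusted p = 8.50e-05), with no overlap within either line, and Gas5, a growth arrest RNA, rose by 0.70. Cdkn1a, which encodes p21, was at −0.50 (adjusted p = 0.0294), Cdkn2c at −0.81 (0.0461), Ccne1 at −0.74 (0.0302), Ccnd3 at −0.41 and Ccng1 at −0.49. The estimate of Cdkn2c was −0.14 in normal and −1.47 in tumor cells (adjusted p of the difference 0.069). Of the 5 falls only that of Ccng1 was kept with any 1 pair left out. Their number was 1 without experiment 2 of tumor cells and 2 without experiment 1 of either line. Mxd3, a MAX partner of dividing cells, fell by 1.70 on the log2 scale (SE 0.26, adjusted p = 0.00291).

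**Figure D3:**
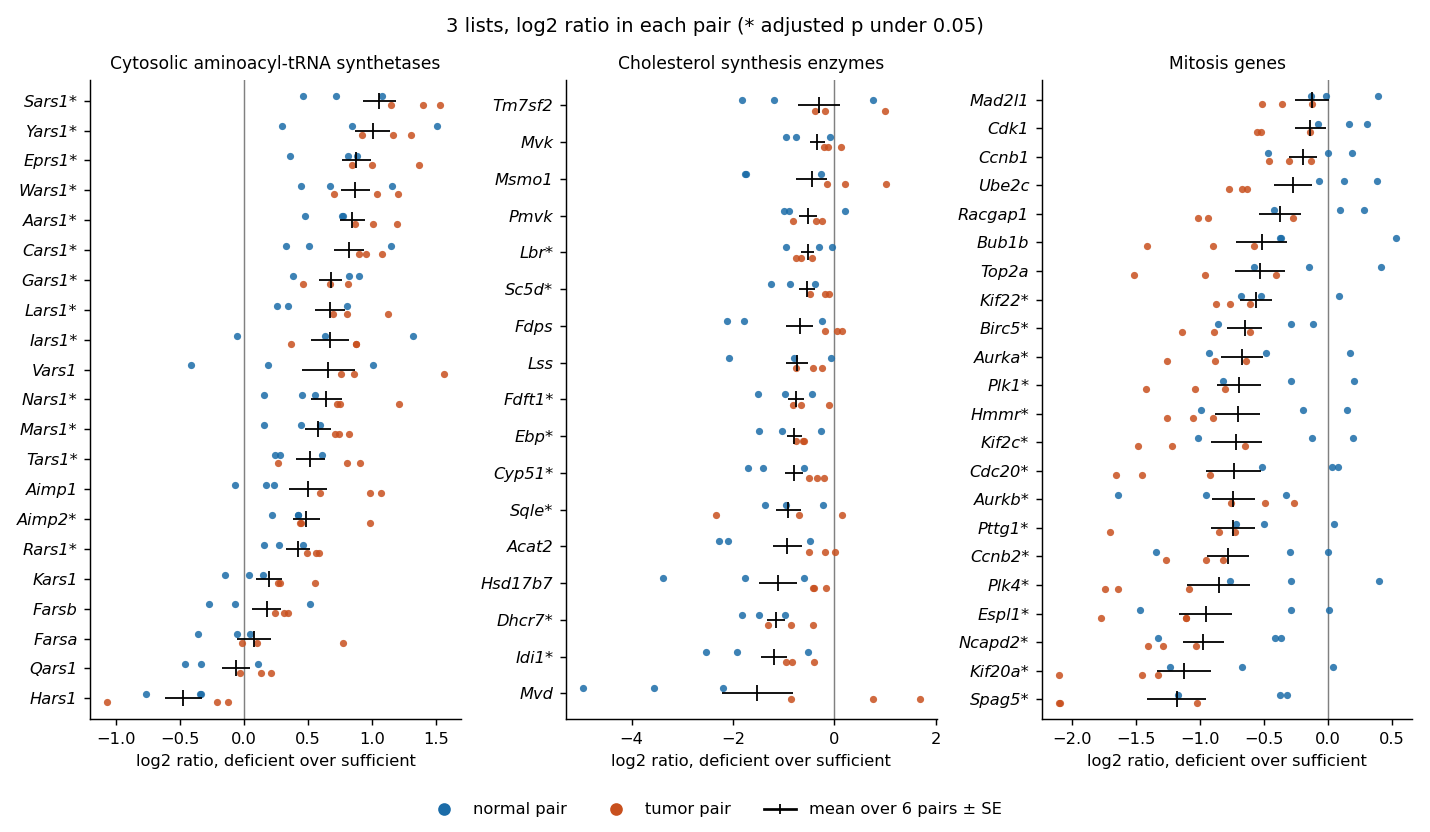
Log2 change without arginine (x axis) for the tested cytosolic aminoacyl-tRNA synthetases, cholesterol synthesis enzymes and mitosis genes (rows). Points are the 6 pairs, blue for normal and orange for tumor cells, the black mark and bar are the mean and its standard error, and stars mark an adjusted p under 0.05, on 14 synthetases above 0 and on 8 cholesterol enzymes and 15 mitosis genes below 0.

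Among immediate early genes and phosphatases 5 of 22 rose (22.7%) and 0 fell, with a median of 0.37. Myc went from a median of 422 to 725 (1.13 ± 0.16, adjusted p = 0.00188) and Klf2, a zinc finger factor, from 534 to 1087 (1.31 ± 0.24), and Fosl1, Ier2 and Dusp1 rose by 0.64, 0.64 and 0.68, the calls of the last 3 being lost without some 1 pair. Dusp1 was at 0.14 in normal and 1.23 in tumor cells (adjusted p of the difference 0.069). The list had 2 rises without any 1 experiment of tumor cells, 3 without experiment 1 and 8 without experiment 2 of normal cells. Ribosome biogenesis had 7 rises of 25 (28%) and 0 falls, of which Nop58 (0.69) and Gar1 (0.74), proteins of small nucleolar particles, were kept. In that list 2 rose without experiment 1 of normal or experiments 1 or 2 of tumor cells, and 3 without experiment 3 of tumor cells. Ribosomal proteins had 2 rises of 39 (5.13%, near the 4.55% of all genes) and a median of 0.13. The count rested on single pairs: it was 11 without experiment 3 of normal cells and 0 without experiment 1 of normal cells or any 1 experiment of tumor cells. Of 19 NRF2 targets 4 rose (21.1%), of which Txnrd1, thioredoxin reductase (0.45), was kept. In this list 6 rose without experiment 2 of normal cells, and 1 to 2 without any other 1 pair.

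In the other lists the share of calls is set beside the 4.55% of all genes that rose and the 5.69% that fell. Of 26 proteasome subunits 1 rose and 1 fell (3.85% each), of 36 genes of the respiratory chain 1 rose (2.78%) and 3 fell (8.33%, Uqcrh by 0.67 on the log2 scale, adjusted p = 0.00239, the call kept), of 17 glycolysis genes 1 fell (5.88%), of 12 heat shock proteins 1 rose (8.33%), of 13 genes of the urokinase system 1 fell (7.69%, Prss23), and of 10 genes of the IGF system 0 were past the threshold. Collagens, laminins and integrins had 1 rise (4.17%) and 3 falls (12.5%) of 24, and contractile genes 2 falls of 16 (12.5%). In the interferon list 2 of 17 rose and 2 fell (11.8% each). Ifi27l2b, an interferon-inducible mitochondrial protein, was at 1421, 1618 and 1201 with arginine and 9126, 2536 and 6089 without in normal cells, and at 414, 263 and 337 against 3609, 3190 and 2484 in tumor cells. The conditions did not overlap (2.55 ± 0.28, adjusted p = 0.000359), and the median of the list was 0.04.

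Some genes were called only in a probe set other than the one that stands for them in the lists, and are left out of the counts above. Plau, urokinase itself, was lower in 6 of 6 pairs in one probe set (−0.98 ± 0.19, adjusted p = 0.0106), a call lost without any 1 experiment of tumor cells (−0.87 to −1.11 without any 1 pair), and was at −0.60 (adjusted p = 0.222) in the probe set with the higher signal. Ctsl, a lysosomal protease, rose by 0.84 (adjusted p = 0.00326), Azin1, which protects ornithine decarboxylase from antizyme, rose by 0.66 (adjusted p = 0.0138) and Actn1, an actin crosslinker, fell by 0.57 on the log2 scale (adjusted p = 0.0101), all 3 in calls kept with any 1 pair left out. Acsl1, Wipi1, Polr1d and Sparc (−0.56, −0.52, −0.47 and −0.55) fell and Lamp2, Klf6 and Dusp6 (0.56, 0.51 and 0.56) rose in such a probe set with calls that were lost without some 1 pair.

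**Figure D4:**
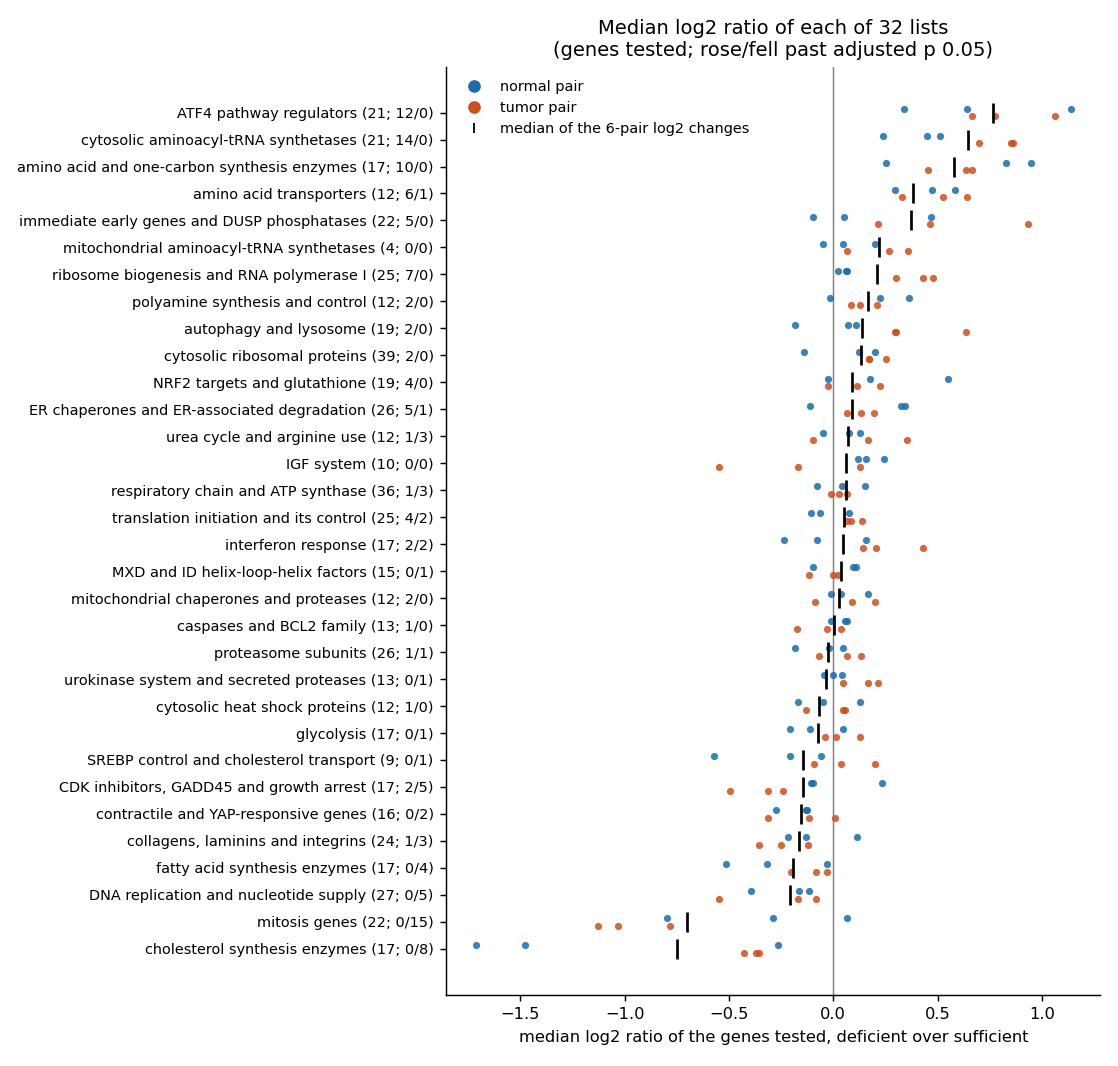
Median log2 change without arginine (x axis) of the tested members of the 32 gene lists (rows) in each of the 6 pairs, blue for normal and orange for tumor cells. The ATF4 regulators (0.34 to 1.14) and synthetases (0.24 to 0.86) lie above 0 in every pair, cholesterol synthesis lies below 0 in every pair (−0.27 to −1.71), and mitosis lies between −1.13 and 0.06.

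Genes outside the lists were among those with the smallest p or the largest change. Avpr1a, the vasopressin receptor of liver cells, was at 762, 1688 and 1752 with arginine and 228, 1175 and 880 without in normal cells, and at 525, 637 and 445 against 210, 252 and 191 in tumor cells (−1.19 ± 0.14, adjusted p = 0.000684), lower in 6 of 6 pairs with no overlap in tumor cells. Cep164, of the centriole, fell from 436 to 810.5 with arginine to 282 to 402 without, and Aldh4a1, which degrades proline to glutamate, from 660 to 1176.5 to 343 to 569, both with no overlap (−0.92 ± 0.11 and −0.89 ± 0.11). Gask1b (−1.09), Hrct1 (−1.57), Chst12, a chondroitin sulfotransferase (−1.64), Dclk1, a microtubule-binding kinase (−1.17), Fzd1, a WNT receptor (−0.93), Wdr6 (−0.88), Stmp1 (−0.74) and Nup205, of the nuclear pore (−0.71), fell in all 6 pairs, and Chaf1a, a chromatin assembly factor, was among the largest falls (−1.60, adjusted p = 0.0117).

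Several of the largest estimates came from low signals. Abcb1a, a multidrug efflux pump, was at 3.9 to 165 with arginine and 30.2 to 881 without (2.63 ± 0.44, adjusted p = 0.00470), and Niban1 at 9.4 to 88.2 and 40 to 257 (2.38 ± 0.43, adjusted p = 0.00652). With low signals raised to a floor these were 0.75 (adjusted p = 0.0910) and 0.13 (adjusted p = 0.47). Under the same floor Rasa3 went from −1.56 to −0.30 (adjusted p = 0.101) and Dact3 from −1.69 to −0.50 (adjusted p = 0.109). The falls of Gask1b, Hrct1, Chst12, Fzd1, Chaf1a and Mxd3 were smaller with it, at −0.66, −0.79, −1.01, −0.66, −0.84 and −0.86. Their calls were kept (adjusted p up to 0.0252). Rbms2 fell by 1.81 on the log2 scale in 1 probe set (−0.52 with the floor, adjusted p = 0.0231), and its other probe set was at −0.13. For genes with several probe sets tested, all were above 0 in 51 of 60 genes with a rise and below 0 in 94 of 99 genes with a fall, and 1 gene had both a rise and a fall.

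The size of the effect was then compared between the lines. Of the 974 calls, 116 were also called in each line alone, 60 in normal cells alone, 459 in tumor cells alone, and 339 (128 rises and 211 falls) in neither, being called from both together. The lines had the same sign for all 974, which choosing calls over both favors. The estimate was larger in tumor cells for 273 of the 424 rises and 368 of the 550 falls, and the median rise was 0.55 against 0.69, the median fall −0.49 against −0.64. The median rise in the 3 pairs of normal cells was 0.74, 0.31 and 0.57, and that in the tumor pairs 0.84, 0.68 and 0.56. The median fall was −0.63, −0.29 and −0.51 in the normal pairs and −0.70, −0.66 and −0.55 in the tumor pairs. The part of experiment 2 of normal cells in the difference was not tested. The difference between the lines passed the threshold for 5 probe sets (0.0513%), 1 of them among the 974 calls, and 1323 did at an unadjusted p under 0.05 in limma. Prss23, a secreted serine protease, was that call, at −0.18 ± 0.18 in normal and −2.31 in tumor cells (adjusted p of the difference 0.0109). Its call over both lines (−1.24, adjusted p = 0.0348) was lost without any 1 experiment of tumor cells (adjusted p up to 0.105). Rgs2, a regulator of G protein signaling, was at 1.06 in normal and −0.18 in tumor cells, and Il1rl1, the receptor of IL-33, at −0.97 and 0.73 (adjusted p 0.0370 for both differences). A probe set of Rock2, a kinase of the actomyosin cytoskeleton, was at 0.18 and −2.61 (0.0109), with signals down to 23.3 without arginine. An unnamed probe set was at 0.15 and −1.40 (0.0109). Across the 9745 probe sets, which are not independent, the mean log2 ratio of the normal pairs correlated with that of the tumor pairs at r = 0.37, and single pairs at 0.17 to 0.41 within normal cells, 0.41 to 0.48 within tumor cells and 0.10 to 0.33 between them.

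**Figure D5:**
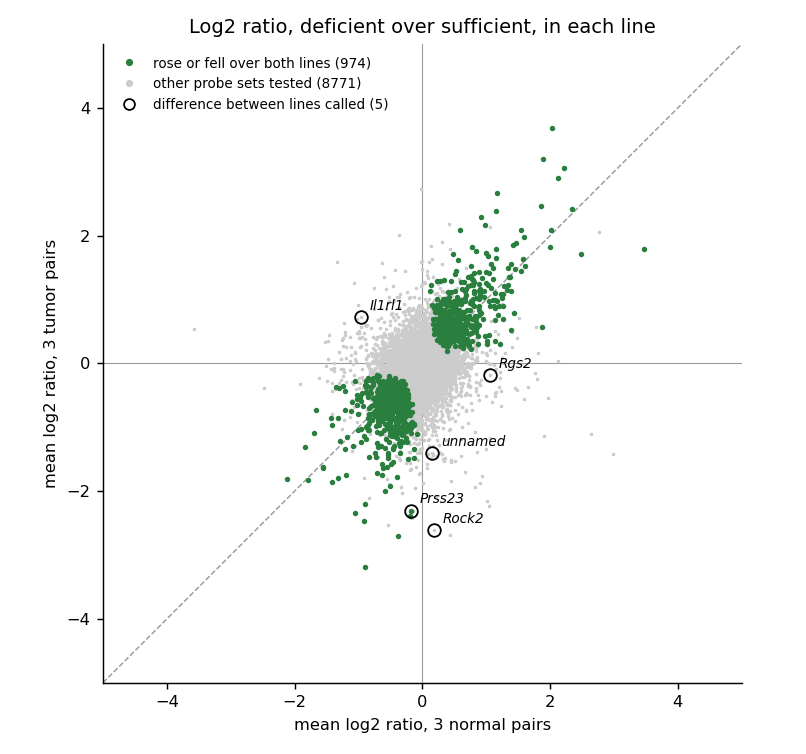
Mean log2 change without arginine in normal cells (x axis, 3 pairs) against that in tumor cells (y axis, 3 pairs) for the 9745 probe sets tested. Colored points are the 974 calls over both lines and grey points the other 8771, and the 5 circled points are those whose change differed between the lines.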

How the data were processed

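The deposited values are intensities on a linear scale, the signal of each probe set that the authors computed with Microarray Suite 5.0 from perfect match and mismatch probes on each array separately, with a scale factor per array (trimmed mean 500.1 to 500.2, leaving out 2% at either end). Signals below 1 (9 to 24 on an array) were set to 1 and log2 was taken. Probe sets among the highest 54% of an array on at least 3 of 12 arrays were tested, without the 57 controls of the 15923. Of all probe sets 12777 carry 1 gene symbol, 311 several and 2778 none, and only those with 1 were named.

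The model in limma 3.58.1 (R 4.3.3) held the 6 pairs as a block and 1 arginine term, with empirical Bayes moderation and an intensity trend (5 residual and 7.20 prior degrees of freedom) and Benjamini-Hochberg adjustment over 9745 probe sets. Values within lines and the difference between them came from a fit with an interaction (4 residual degrees of freedom). p-values measure the spread between these paired experiments. A gene in a list was read from its probe set with the highest mean signal. Pairs follow the numbers in the labels. Of the array run records 10 of 12 carried a note on arginine, all 10 as labelled, and the codes of both arrays were neighbours in 6 of 6 pairs. Deviations from group means correlated at 0.38 to 0.56 in 5 pairs and at 0.04 in experiment 2 of tumor cells.

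The members and the 32 lists were chosen with earlier results of these data known. Genes were chosen for naming by rule: the 12 rises and 12 falls with the smallest p and the 8 of each with the largest change among those with 1 symbol and 1 direction in all 6 pairs, up to 4 called members of each list, all members of the lists of ATF4 regulators, amino acid enzymes, transporters, synthetases, arginine use and cholesterol synthesis, and calls of the difference between lines. Not every gene that met the rule is named above. In the lists taken whole, the members left unnamed were not past the threshold. The genes named for a promoter match (Avil, Tubb3, Cox6a2 and Pck2), those named for a call under the Gapdh covariate (Uqcc3), those called only in another probe set, marker genes and the smaller changes named in the lists of translation, mitosis and the cell cycle were chosen after their values were seen. Promoter windows are RefSeq sequences of GRCr8. Alternatives covered filters, a floor, an offset of 16, quantile normalization, median centring, moderation, other blocks (none, scan day, chip lot), an interaction, single lines, the Gapdh ratio as a covariate and each pair left out. The fit was tested on simulated data. Plots were made in Python 3.11.15 (matplotlib 3.10.9). The authors' change calls were not used here. Some sequences of promoter windows are not reported here.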

Additional observations from a re-analysis of the deposited data

Results flagged for a closer look

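In 8 of 223 values checked over the 6 pairs, 1 pair lay far from the other 5, and chance flags about 1 in 20 such sets (11.15 of 223). The log2 ratio of experiment 2 of normal cells was 0.985 for Mthfd2 (the others 1.41 to 1.64), 1.17 for the second probe set of Trib3 (2.16 to 2.60) and −0.629 for Cep164 (−0.92 to −1.01), in the pair whose arrays differ in chip lot and scan day. Aimp2 was at 0.985 in experiment 2 of tumor cells (0.22 to 0.44), Irf7 at −1.65 in experiment 3 of normal cells (−0.30 to −0.72), Lss at −2.08 in experiment 1 of normal cells (−0.07 to −0.80) and Jdp2 at 0.999 in experiment 1 of tumor cells (0.16 to 0.37). The median of the ribosomal proteins was −0.141 in experiment 3 of normal cells and 0.12 to 0.25 in the other pairs.

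The change differed between the lines, as tumor minus normal on the log2 scale, by −2.13 for Prss23, −2.79 for 1 probe set of Rock2 and −1.55 for an unnamed probe set (adjusted p = 0.0109 for each, limma with an interaction), and by −1.24 for Rgs2 and 1.70 for Il1rl1 (adjusted p = 0.0370 for both). Shmt1, the cytosolic serine hydroxymethyltransferase, moved in opposite directions in all pairs of the lines, at −0.65 in normal and 0.20 in tumor cells, and the difference of 0.856 was not past the threshold (adjusted p = 0.143).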

How the results depend on the processing

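Against 424 rises, 550 falls and 5 differences between the lines, in that order, the counts were 301, 344 and 0 without a filter on low signals, 443, 577 and 18 with the highest 40%, 410, 600 and 40 with a floor, 444, 591 and 6 with an offset, 464, 469 and 6 with quantile normalization, 550, 360 and 4 with median centring, 258, 285 and 2 without an intensity trend and 0, 1 and 0 in a plain linear model (957 higher and 1330 lower at an unadjusted p under 0.05). Without the replicate block they were 162, 118 and 0, in the two-way model of the methods, which has no block, 82, 55 and 0 (739 and 1017 unadjusted), with scan day as the block 171, 155 and 0, with chip lot 140, 73 and 0, and with the Gapdh ratio as a covariate 7, 3 and 19. With an interaction in the model 594 rose and 836 fell. Normal pairs alone gave 100 and 61, and tumor pairs alone 529 and 586. Leaving out 1 pair gave 198 to 465 rises, 185 to 589 falls and 1 to 31 differences. None of the 974 calls turned its sign in these settings. Il1rl1, at −0.12 over both lines, was at 0.73 in tumor pairs alone. Of the 142 calls among named probe sets, 133 were lost with the Gapdh covariate, all 142 in the plain linear model, 55 without the block and 5 to 47 with 1 pair left out. The cause was not tested. The number of arrays limits the precision, and signals near the floor have no order.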
